A study of Mus musculus with 8 samples.

Results

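The genes of glycolysis and of the response to low oxygen were examined in peritoneal macrophages of mice labelled wild type or knockout for Men1, which encodes menin, a scaffold of histone methyltransferase complexes. The set holds 36 gene symbols: 2 membrane transporters, 17 enzymes of the pathway from glucose to lactate, 3 regulators of its flux, the transcription factor gene Hif1a and 13 targets of hypoxia-inducible factor (HIF). They were taken by symbol from the deposited count table, where they occupy 37 of 54532 rows because Aldoa is listed in a pair of rows. Of the 36 genes, 35 were expressed highly enough to be tested. Ankrd37, an ankyrin repeat gene induced by HIF, and the second row of Aldoa had at most 11 counts in any library and were left out.

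All animals had received thioglycollate broth, an irritant that draws macrophages into the peritoneal cavity, and the cells are labelled macrophage. The genotype label was WT or KO, the knockout being of Men1. Sample titles add the letter M or F, which the labels do not spell out, and an animal number. Under the letter M there were 3 wild-type animals, M_WT_5643, M_WT_6258 and then M_WT_6255, and 3 knockouts, which are M_KO_5944, M_KO_5645 and lastly M_KO_5642. The letter F had 1 of each, F_WT_5638 as wild type and F_KO_5639 as knockout. Values are given in that order throughout. How the knockout was made, in which cells, on which strain and at what age is not given in the sources used here.

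Glycolysis splits glucose into pyruvate, which is reduced to lactate or burned in mitochondria, and macrophages lean on it when they are activated. When oxygen falls, prolyl hydroxylases stop marking HIF-1α for destruction. The factor then pairs with ARNT, binds short DNA elements around the core RCGTG and raises transcription of glucose transporters, nearly every glycolytic enzyme and genes for vessel growth, collagen modification and mitophagy. Inflammatory signals can stabilise the same factor in macrophages at normal oxygen.

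The HIF core was common near the starts of these genes. RefSeq promoter windows (250 bases before to 50 after a start, build GRCm38.p6) were found for 34 of the 36 genes. Only the 250 bases before the start were searched. There, ACGTG or GCGTG, on either strand, was present in 40 of their 52 windows (76.9%) and in at least 1 window of 31 genes. It was present in 12679 of 32851 windows of all genes (38.6%) and in 6780 of 12268 windows of the genes tested in M_KO against M_WT (55.3%). The median GC content of the 3 collections was 60.4%, 52.4% and 59.6%. The windows of Eno2, Gpi1 and Tpi1 held neither word in the bases searched, which says only that these letters are missing there. Windows of 45 bases around 1 match are shown for 4 genes whose counts were lower in every M_KO than in every M_WT library, and for Ldha and Pgk1, which encode abundant enzymes. The capitals mark the matched word or its reverse complement, the strand is that of the gene, reading 5′ to 3′, and all of these windows lie outside the exons of the GENCODE M21 annotation.
Slc2a1, chr4:119108664-119108708, plus strand, outside annotated genes: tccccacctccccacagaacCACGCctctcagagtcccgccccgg
Hk2, chr6:82774482-82774526, minus strand, outside annotated genes: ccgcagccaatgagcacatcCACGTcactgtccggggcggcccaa
Gapdh, chr6:125165793-125165837, minus strand, within the gene: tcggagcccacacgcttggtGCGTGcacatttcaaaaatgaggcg
P4ha2, chr11:54100826-54100870, plus strand, within the gene: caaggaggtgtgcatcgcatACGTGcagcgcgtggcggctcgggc
Ldha, chr7:46845737-46845781, plus strand, within the gene: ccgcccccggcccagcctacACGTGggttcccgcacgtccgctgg
Pgk1, chrX:106186930-106186974, plus strand, outside annotated genes: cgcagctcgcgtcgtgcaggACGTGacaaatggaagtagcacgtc
A match is a description of the letters and does not show that HIF binds there. In Vegfa the matches near an annotated start lay within coding exons and in Slc16a3 within an annotated UTR, so neither is printed.

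Libraries held 18206427 to 22853583 counts. Men1 itself, in CPM (counts scaled to library size with TMM factors), was at 25.9, 17.2 and 21.5 in the M_WT libraries, at 8.18, 6.52 and 8.34 in those of M_KO, and at 18.0 (F_WT) and 11.8 (F_KO) in the F pair. Its M groups did not overlap (exact permutation test, two-sided, p = 0.1, the smallest that 3 against 3 libraries allow). The mean of M_KO was 35.7% of that of M_WT, and the ratio of F_KO to F_WT was 0.66, so Men1 counts were lower but not absent in the libraries labelled KO. The interaction of genotype and letter for Men1 was 0.88 on the log2 scale (SE 0.40), with an edgeR adjusted p of 0.965. Macrophage markers were abundant, led by Lyz2, and their summed level was 21774 to 33191 CPM in M_WT and 19003 to 21707 CPM in M_KO. Singly, the 12 markers went both ways, 8 lower and 4 higher with a median log2 fold change of -0.04. All M_KO libraries lay below the M_WT libraries in 2 markers and above them in 2, where the shares over all genes were 7.14% and 8.99%. DESeq2 called 1 of the 12 higher, where it called 95 of 15545 genes higher. Summed dendritic cell markers, led by Ccl22, were 38.2 to 92.0 CPM in M_WT and 19.8 to 22.5 CPM in M_KO. Of these 10 markers 6 were tested, 5 lower and 1 higher in M_KO. All M_KO libraries lay below the M_WT libraries in 2 of the 6, where 7.14% of all genes did so. DESeq2 called 1 of the 6 lower, against 0.598% of all genes. Neither the macrophage nor the dendritic cell sum overlapped between the M groups. Neutrophil, B cell and mast cell marker sums did overlap, and Ear1, Ear6 and Mcpt8 were at 0 in all libraries. Neutrophil sums were 231 to 599 CPM in M_WT and 287 to 720 CPM in M_KO. B cell sums were 137 to 424 and 206 to 632 CPM. Singly, 4 of 5 tested neutrophil and 8 of 9 tested B cell markers were higher in M_KO (medians 0.54 and 0.72). Over all genes 51.5% were higher. In the F pair all 5 and all 9 were higher in F_KO. Mast cell markers were 4 higher and 2 lower in M_KO. edgeR and DESeq2 called 0 of these tested markers. Less RNA of a gene per cell and fewer cells that hold it cannot be told apart in such bulk samples, and the part of these markers in the results below was not tested.

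In M_KO against M_WT, the genes lay mostly a little lower, and few stood clear of the spread between libraries. Of the 35 tested genes, 28 (80.0%) had a lower fitted value in M_KO and 7 a higher one, against 48.5% lower among all 13646 genes tested. Their median log2 fold change was -0.19, where that of all tested genes was 0.01. Scaling by library totals alone left 22 of 35 lower, with a median of -0.10 where that of all genes was 0.10. With edgeR's quasi-likelihood test, adjusted over all genes at 0.05, 0 of the 35 were called, against 0.022% of all genes in either direction, and the smallest adjusted p was 0.330. At an unadjusted edgeR p under 0.05 there were 5 lower genes, Vegfa, Gapdh, Hk2, Slc2a1 and P4ha2, and 0 higher ones, where 4.22% of all genes were lower and 5.33% higher at that level. DESeq2 called 2 of the 35, Vegfa and Gapdh, both lower, against 0.598% of all genes called lower. In the authors' deposited table the same 2 genes were called lower, against 0.281% of its rows.

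All 3 M_KO libraries lay below all 3 M_WT libraries in 5 genes, Slc2a1, Hk2, Gapdh, Vegfa and P4ha2, which is 14.3% of the 35 where the share over all genes was 7.14%. The reverse held for 1 gene, Slc16a3, or 2.86%, below the 8.99% of all genes. Across all 8 libraries the 4 KO lay below the 4 WT libraries in Gapdh and P4ha2, where 2.33% of all genes did so. In the fit of genotype over all 8 libraries edgeR called 0 of the 35 genes (0.00727% of all genes), with 4 lower and 1 higher at an unadjusted p under 0.05, where 4.16% of all genes were lower and 5.32% higher at that level. DESeq2 called Gapdh in that fit (adjusted p = 1.18e-05), 1 of the 35 against 0.874% of all genes.

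**Figure D1:**
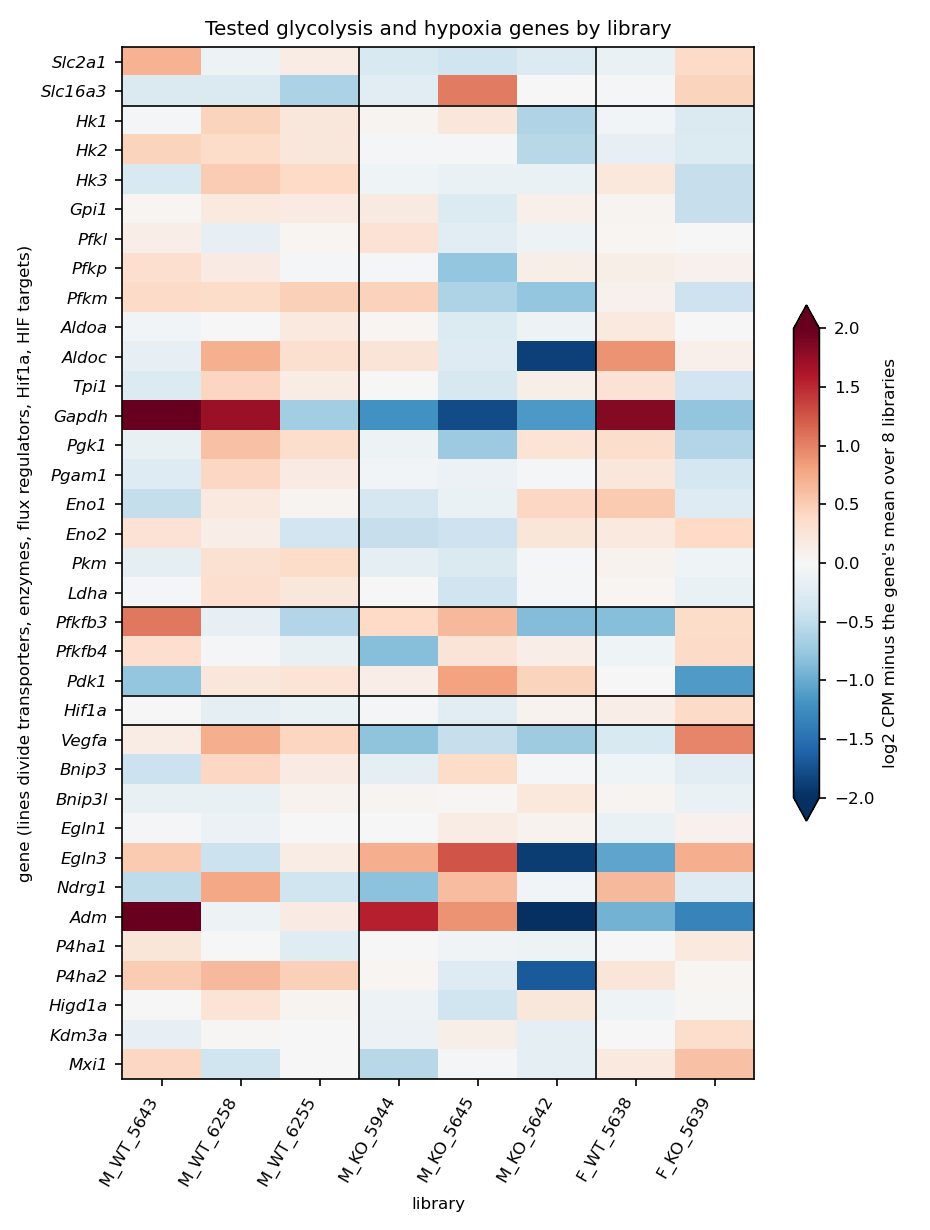
Log2 CPM of each tested gene minus its mean over the 8 libraries, with libraries in columns and genes in rows, red above and blue below the mean and colours saturating at 2 and -2. Gapdh divides most sharply, with M_WT_6255 on the KO side of its mean, and M_KO_5642 is the lowest library in Adm, Egln3, P4ha2 and Aldoc.

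The 2 transporters differed in direction. Slc2a1 (chr4:119108711-119137983, build GRCm38) encodes GLUT1, the main glucose importer of activated macrophages. It was at 91.9, 52.9 and 63.2 CPM in the M_WT libraries, at 46.3, 43.0 and 47.0 in those of M_KO, and at 52.1 (F_WT) and 73.9 (F_KO) in the F pair. Every M_KO library was below every M_WT library, while in the F pair the KO library was the higher. The M difference was -0.61 on the log2 scale (SE 0.21), with an edgeR adjusted p of 0.474 and a DESeq2 adjusted p of 0.313.

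Slc16a3 (chr11:120948480-120960868) encodes MCT4, which exports lactate. It was at 54.5, 54.6 and 42.9 CPM in the M_WT libraries, at 57.7, 137 and 66.3 in those of M_KO, and at 65.2 (F_WT) and 91.3 (F_KO) in the F pair. The KO libraries were higher in both letters, and the M means of 50.7 ± 6.70 and 87.0 ± 43.6 (SD, n = 3 each) rested largely on M_KO_5645. The log2 fold change of 0.77 (SE 0.33) was not called by edgeR (adjusted p = 0.525) and was 0.29 without M_KO_5645. The other monocarboxylate transporters, which are not among the 36 genes, had fold changes of -0.99 (Slc16a1, MCT1) and 0.65 (Slc16a7, MCT2), with edgeR adjusted p of 0.478 and 0.554.

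The enzymes leaned lower as a group, in both letters. Without Gapdh, 15 of the 16 tested enzymes had a lower fitted value in M_KO (median log2 fold change -0.30), and 15 of 16 were lower in F_KO than in F_WT, with a median difference of -0.36. Among all tested genes, 49.3% were lower in the F pair, with a median of 0.01. Upper-quartile scaling and scaling by library totals alone left 14 of 16 lower in M_KO, with Pfkl, the liver-type phosphofructokinase, changing sign. The median was -0.18 with 13 of 16 lower without M_KO_5645, and -0.20 with 15 of 16 lower without M_WT_6258. In the F pair, the enzyme that was higher was Eno2, and in M it was Eno1. No enzyme other than Gapdh was called by edgeR or DESeq2, and 1, Hk2, had an unadjusted edgeR p under 0.05.

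Hexokinases trap glucose in the cell as glucose 6-phosphate, and Hk2 is the isozyme induced by HIF. Hk2 (chr6, minus strand) was at 245, 232 and 209.6 CPM in the M_WT libraries, at 176, 176 and 122 in those of M_KO, and at 161 (F_WT) and 148 (F_KO) in the F pair. Every M_KO library was below every M_WT library, but M_KO_5944 and M_KO_5645 lay above F_WT. The M difference was -0.54 (SE 0.17, edgeR adjusted p = 0.474). Hk3, the isozyme of myeloid cells, was at 80.0, 142 and 130.5 CPM in the M_WT libraries, at 93.9, 90.2 and 90.5 in those of M_KO, and at 115 (F_WT) and 71.8 (F_KO) in the F pair. M_WT_5643 was below all 3 M_KO libraries, so the groups overlapped. By FPKM, which takes gene length into account, Hk2 made up 49.0 ± 8.21% of the hexokinase level in M_WT and 44.9 ± 3.5% in M_KO (SD, n = 3 each), and Hk1, the housekeeping isozyme, 11.2 ± 0.60% and 12.3 ± 2.11%.

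Phosphofructokinase commits sugar to glycolysis. Its platelet-type gene Pfkp was at 329, 292 and 255 CPM in the M_WT libraries, at 257, 153 and 283 in those of M_KO, and at 282 (F_WT) and 277 (F_KO) in the F pair, with overlapping groups. Pfkl was level between the groups, at 194 ± 20.2 CPM in M_WT and 193 ± 37.7 CPM in M_KO. Its share of the FPKM of the 3 isozymes was 46.3 to 51.6% in M_WT and 52.0 to 61.4% in M_KO, and 51.7% in F_WT and 53.4% in F_KO. The M shares did not overlap, by a narrow margin, and F_WT lay between the M_WT and M_KO ranges. For each other isozyme compared in this way (of hexokinase, phosphofructokinase, aldolase, enolase and the Pfkfb genes), the M shares overlapped. Pfkm, the muscle type, was at 27.1 to 29.3 CPM in M_WT and at 29.1 in M_KO_5944 but 13.7 and 12.3 in M_KO_5645 and M_KO_5642.

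The later enzymes were among the most abundant transcripts of the set. Over the 8 libraries Ldha, which makes lactate, averaged 188 FPKM, Aldoa (aldolase) 151, Pkm (pyruvate kinase) 124, Eno1 (enolase) 98.7 and Pgk1 (phosphoglycerate kinase) 62.3. Pkm was at 550.1, 768 and 800.4 CPM in the M_WT libraries, at 549.9, 508 and 602 in those of M_KO, and at 654 (F_WT) and 585 (F_KO) in the F pair. Ldha was at 603, 781 and 726 CPM in the M_WT libraries, at 627, 474 and 603 in those of M_KO, and at 640.5 (F_WT) and 565 (F_KO) in the F pair. In both genes M_WT_5643 lay among the KO libraries, and the other WT libraries lay above all KO libraries. Their log2 fold changes were -0.36 (SE 0.18) and -0.31 (SE 0.17), with edgeR adjusted p of 0.570 and 0.600.

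Of the remaining enzymes, Gpi1, Aldoa, Tpi1 and Pgam1, the housekeeping steps between these, had log2 fold changes of -0.12 to -0.20 in M and -0.19 to -0.68 in the F pair. Pgk1 was at -0.43 in M and -0.94 in the F pair, and Hk1 at -0.29 and -0.23. Eno1 was at 0.06 in M (SE 0.26) and -0.78 in the F pair, and became -0.11 without M_WT_5643 and -0.20 without M_KO_5642. Aldoc and Eno2, the brain-type isozymes, stood at or below 2.98 and 4.82 CPM and made up at most small parts of their families, 0.388 ± 0.120% and 0.887 ± 0.396% of the FPKM in M_WT.

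**Figure D2:**
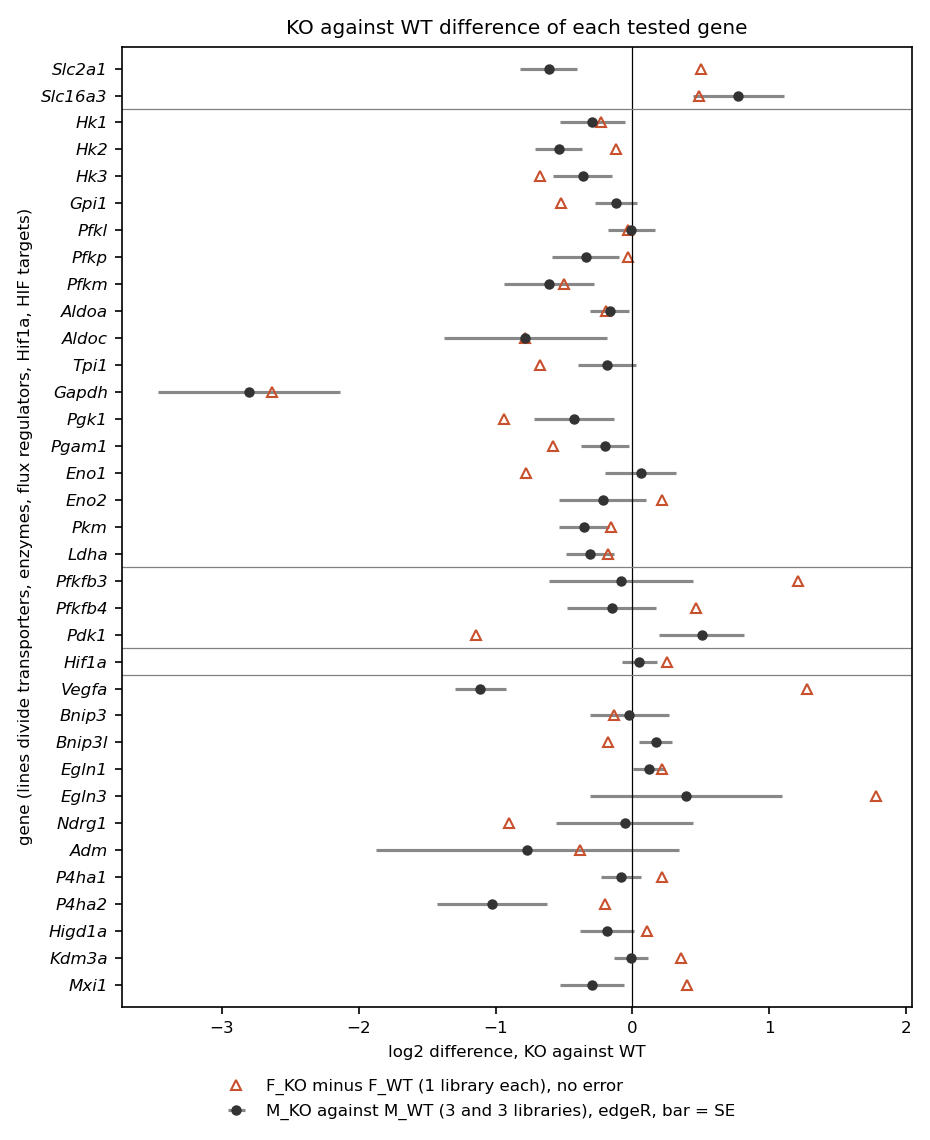
KO against WT difference on the log2 scale for each tested gene, with filled points and SE bars for M (edgeR, 3 against 3 libraries) and open triangles for the F pair (1 library each, no error). Among the enzymes both markers lie mostly left of 0, while Slc2a1, Pfkfb3, Vegfa and several HIF targets have their triangles on the right.

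Gapdh (chr6), the enzyme often used as a reference gene, gave the widest difference and the least certain counts. It was at 90.8, 71.0 and 13.2 CPM in the M_WT libraries, at 9.26, 6.16 and 9.68 in those of M_KO, and at 76.9 (F_WT) and 12.3 (F_KO) in the F pair. M_WT_6255 was near the KO libraries and the other WT libraries were far higher, and no KO library reached a WT library. The log2 fold change was -2.80 (SE 0.66). The edgeR adjusted p was 0.434 and ranged from 0.0868 to 0.923 over the edgeR and limma alternatives. The DESeq2 adjusted p was 0.000442, and it ranged from 5.06e-21 to 0.0751 when single libraries were left out, missing the threshold without M_KO_5642.

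The level of Gapdh was far below that of its neighbours in the pathway, at a mean of 8.70 FPKM (rank 4548 of all rows) against 188 for Ldha (rank 230). Its transcript is shared with processed pseudogenes, reverse-transcribed copies scattered over the genome: 148 annotated copies of at least 90% identity were found, 50 of them with at least 10 counts in the 8 libraries. Of all stretches of 100 bases in the Gapdh transcript, 78.0% occurred in another annotated transcript. How the authors treated reads that map to several places is not given in the sources used here. A stretch of 60 bases from the open reading frame of Gapdh (bases 1081 to 1140 of the transcript, 5′ to 3′) is set beside the same stretch of 2 copies, with capitals where a copy differs from Gapdh.
Gapdh: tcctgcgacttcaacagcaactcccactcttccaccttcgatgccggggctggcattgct
Gm7336, a copy at chr7:51746647-51747878: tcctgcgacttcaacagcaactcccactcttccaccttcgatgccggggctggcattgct
Gm5345, a copy at chr8:40853828-40855027: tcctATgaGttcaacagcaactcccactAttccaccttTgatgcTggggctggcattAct
Gm7336 was identical to Gapdh over the whole open reading frame, and Gm5345 differed at 7 of these 60 bases. The stretch was chosen as the one, among consecutive stretches of that length, where Gm5345 differed most.

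Counts assigned to the copies were sizeable and did not follow those of Gapdh. Summed, the copies were at 26.7, 50.6 and 55.1 CPM in the M_WT libraries, at 28.4, 25.8 and 30.3 in those of M_KO, and at 33.0 (F_WT) and 23.1 (F_KO) in the F pair, and M_WT_5643 lay among the M_KO libraries. In M_WT_6255, the WT library with little Gapdh, the copies had the highest sum. Gapdh and its copies together were at 118, 122 and 68.3 CPM in the M_WT libraries, at 37.7, 32.0 and 39.9 in those of M_KO, and at 110 (F_WT) and 35.4 (F_KO) in the F pair. With the copies added, all WT libraries stayed above all KO libraries, and the log2 ratio of the M means went from -2.80 to -1.49 (exact permutation test, two-sided, p = 0.1, the smallest possible with 3 against 3). Copies made up 22.7 to 80.7% of the sum, depending on the library.

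**Figure D3:**
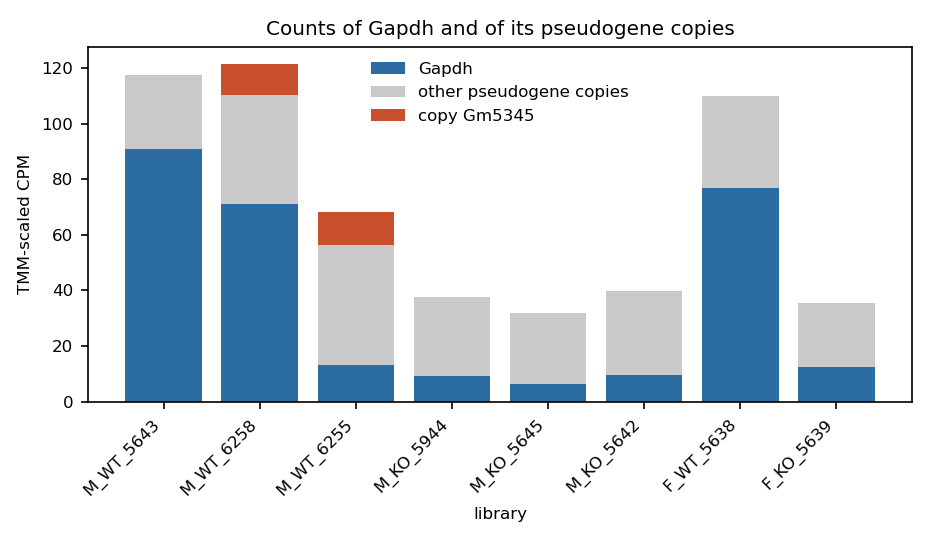
Stacked TMM-scaled CPM of Gapdh (blue), of its pseudogene copies other than Gm5345 (grey) and of Gm5345 (red) in each of the 8 libraries. The 4 KO libraries sum to between 32.0 and 39.9 CPM, below all WT libraries, and Gm5345 contributes visibly in M_WT_6258 and M_WT_6255.

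Pgk1, Eno1 and Pgam1 also share much of their sequence, 67.0%, 59.0% and 39.7% of their stretches of 100 bases, and their values are uncertain for the same reason. For Eno1, adding 4 pseudogene copies and the retrogene Eno1b gave 726 ± 166 CPM in M_WT and 665 ± 144 CPM in M_KO. The log2 ratio was -0.13 where Eno1 alone gave 0.06. Eno1b, which is not a pseudogene copy by the rule used, averaged 187 CPM in M_WT and 116 CPM in M_KO by itself. Adding copies left Pgk1 at -0.42 and Pgam1 at -0.20. Copies held at most 0.60% of the Pgk1 sum and 1.33% of the Pgam1 sum, so this addition could hardly move either value. It does not settle how shared reads were counted. The HIF targets and transporters named here had at most 15.3% of such stretches in common with other transcripts, and Slc2a1, Slc16a3, Hk2, Hk3, Pfkp, Pfkfb3, Vegfa, P4ha2 and Adm had none.

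The regulators of flux overlapped between the M groups. Pfkfb3, the kinase that makes fructose 2,6-bisphosphate and so drives phosphofructokinase, was at 461, 197 and 147 CPM in the M_WT libraries, at 292, 349 and 121 in those of M_KO, and at 123 (F_WT) and 285 (F_KO) in the F pair. The highest and the lowest value stood in M_WT_5643 and M_KO_5642, and the groups overlapped throughout. Its log2 fold change of -0.08 (SE 0.52) became 0.56 without M_WT_5643, 0.25 without M_KO_5642 and 0.0022 with library totals alone. Summed neutrophil markers were at 599, 231 and 325 CPM in the M_WT libraries and at 548, 720 and 287 in those of M_KO. In the F pair they were at 297 (F_WT) and 663 (F_KO). M_WT_5643, M_KO_5944, M_KO_5645 and F_KO were thus the higher libraries in both. The part of these markers in the spread of Pfkfb3 was not tested. Pfkfb4, a relative at a mean of 1.54 FPKM, was at -0.15 (SE 0.32). Pdk1, the kinase that shuts pyruvate out of the mitochondrial oxidation step, was at 12.9, 25.8 and 26.6 CPM in the M_WT libraries, at 24.2, 38.7 and 30.1 in those of M_KO, and at 22.3 (F_WT) and 10.1 (F_KO) in the F pair. It was higher in KO in M by 0.51 (SE 0.31, edgeR adjusted p = 0.627) and the F pair differed by -1.14.

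Hif1a, the gene of the oxygen-regulated subunit, was expressed at a mean of 62.9 FPKM. It was at 368, 328 and 338 CPM in the M_WT libraries, at 363, 321 and 389 in those of M_KO, and at 407 (F_WT) and 484 (F_KO) in the F pair. The M groups overlapped, and both F libraries lay above all M libraries. The log2 fold change was 0.05 (SE 0.13, edgeR adjusted p = 0.918). HIF-1α is controlled mainly as a protein, which these data do not measure.

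Vegfa (chr17:46016993-46032369), the vessel growth factor and a classic HIF target, had the smallest edgeR adjusted p of the set. It was at 53.7, 80.7 and 65.8 CPM in the M_WT libraries, at 27.8, 35.4 and 29.7 in those of M_KO, and at 39.3 (F_WT) and 95.3 (F_KO) in the F pair. All M_KO libraries lay below the lowest M_WT library, whereas F_KO was the highest of all 8 and F_WT lay between the M groups. The M means of 66.7 ± 13.5 and 31.0 ± 3.93 CPM (SD, n = 3 each) gave a log2 fold change of -1.11 (SE 0.18), that is 2.15-fold lower in M_KO. The edgeR adjusted p was 0.330, with a range of 0.0808 to 0.721 over the edgeR and limma alternatives. The DESeq2 adjusted p was 0.000481, and it ran from 4.13e-05 to 0.0341 when each M library was left out in turn, so DESeq2 called Vegfa in all of these fits. In the F pair the count ratio of KO to WT was 2.42 (95% exact interval 2.24 to 2.63, counting error only). The difference between the letters was 2.38 on the log2 scale, with an edgeR interaction adjusted p of 0.600 and a DESeq2 one of 0.000368. With edgeR 0.0218% of all genes and 0 of the 35 were called for that interaction, with 1 lower and 2 higher of the 35 at an unadjusted p under 0.05, where 2.81% of all genes were lower and 1.56% higher. DESeq2 called Vegfa alone among the 35, against 0.168% of all genes.

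P4ha2, a collagen prolyl hydroxylase subunit, was at 22.9, 25.2 and 22.5 CPM in the M_WT libraries, at 16.5, 13.4 and 4.98 in those of M_KO, and at 19.0 (F_WT) and 16.5 (F_KO) in the F pair. All 4 KO libraries lay below all 4 WT libraries, with M_KO_5642 far below the rest. The log2 fold change was -1.03 (SE 0.40, edgeR adjusted p = 0.497) and -0.66 without M_KO_5642. The DESeq2 adjusted p was 0.288, and without M_KO_5944 it was 0.0395. Its relative P4ha1, at a mean of 17.3 FPKM against 2.80 for P4ha2, had a log2 fold change of -0.08 (SE 0.15).

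Adm, which encodes the vasodilator adrenomedullin, varied most of all the genes in the set, over a 49.2-fold range. It was at 87.5, 12.8 and 15.4 CPM in the M_WT libraries, at 40.7, 25.9 and 1.78 in those of M_KO, and at 7.08 (F_WT) and 5.39 (F_KO) in the F pair. M_WT_5643 and M_KO_5944 were the highest and M_KO_5642 the lowest, across genotypes. Summed mast cell and basophil markers, led by Cma1, were also highest in M_KO_5944 (25.1 CPM) and M_WT_5643 (18.3 CPM) and lowest in M_KO_5642 (1.66 CPM), and their part in the spread of Adm was not tested. The log2 fold change of -0.77 (SE 1.11) became 0.69 without M_WT_5643.

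The prolyl hydroxylases that mark HIF-1α are HIF targets themselves. Egln3 was at 10.3, 5.28 and 7.92 CPM in the M_WT libraries, at 11.9, 17.2 and 1.86 in those of M_KO, and at 3.41 (F_WT) and 11.9 (F_KO) in the F pair, with M_KO_5645 the highest and M_KO_5642 the lowest library. The higher values of Egln3 stood in M_WT_5643, M_KO_5944, M_KO_5645 and F_KO, as did those of the neutrophil marker sum. The part of those markers in the spread of Egln3 was not tested. Egln1, the main oxygen sensor, varied little, from 20.8 to 25.2 CPM in all 8 libraries, with a log2 fold change of 0.12 (SE 0.12).

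The mitochondrial targets overlapped between the groups. Bnip3, a receptor for mitophagy, was at 3.81, 6.87 and 5.79 CPM in the M_WT libraries, at 4.54, 6.67 and 5.02 in those of M_KO, and at 4.83 (F_WT) and 4.38 (F_KO) in the F pair. Higd1a, a small protein of the respiratory chain, was at 16.4, 19.7 and 17.0 CPM in the M_WT libraries, at 15.2, 12.3 and 19.1 in those of M_KO, and at 15.4 (F_WT) and 16.6 (F_KO) in the F pair. In both genes the groups overlapped, with log2 fold changes of -0.02 (SE 0.29) and -0.19 (SE 0.20). Bnip3l, a second mitophagy receptor, was at 0.17 (SE 0.12). The remaining targets were Kdm3a, a histone demethylase, at -0.01 (SE 0.12), Mxi1, an antagonist of MYC, at -0.29 (SE 0.23), and Ndrg1 at -0.06 (SE 0.50). Ankrd37, untested, stood between 0.0395 and 0.586 CPM.

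Over the 12 tested HIF targets, the median log2 fold change was -0.07, with 9 genes lower in M_KO, and in the F pair 5 were lower and 7 higher with a median of 0.16. With library totals alone 5 were lower and 7 higher in M_KO, with Bnip3, Ndrg1, P4ha1 and Kdm3a changing sign. The median was then 0.02, where that of all tested genes was 0.10. Leaving out single libraries also moved the edgeR values: without M_WT_6258 or without M_KO_5944 the genes were divided 6 to 6 (median -0.04 in both fits), without M_KO_5642 they were 7 lower and 5 higher (median -0.04), without M_WT_6255 the median was -0.21 with 7 lower, and without M_KO_5645 it was -0.20 with 10 lower.

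**Figure D4:**
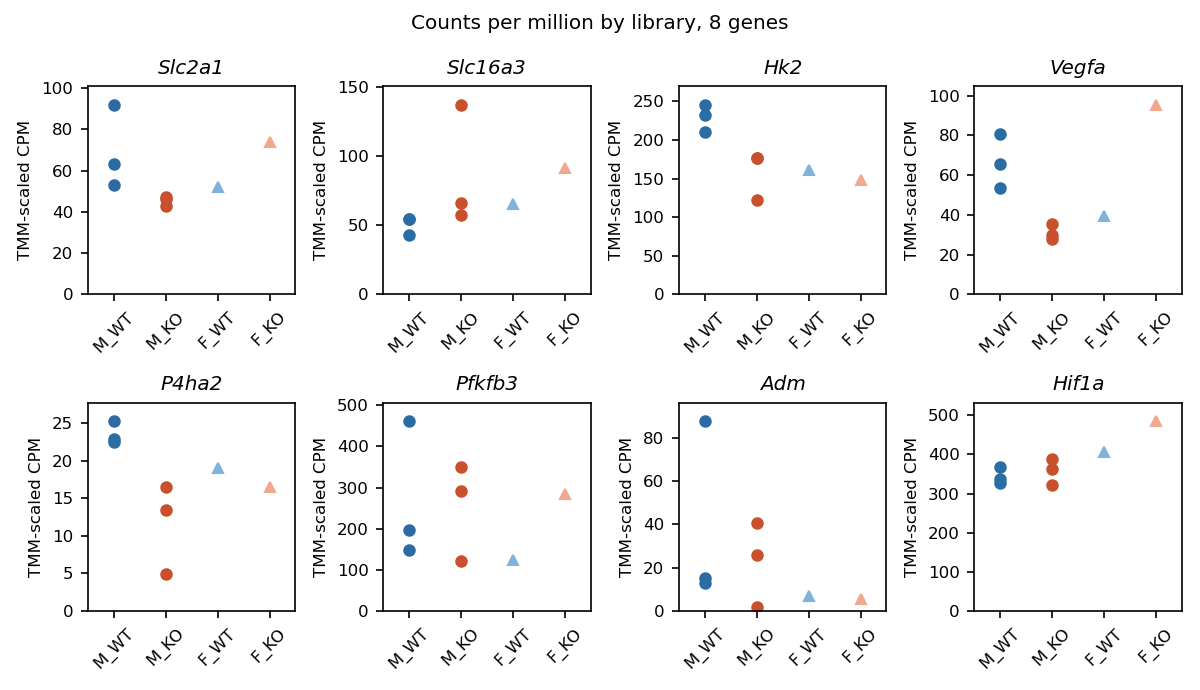
TMM-scaled CPM of 8 genes in each library, 1 point a library, by group (circles for M, triangles for F, each axis from 0). Slc2a1, Hk2, Vegfa and P4ha2 show M_KO below M_WT, F_KO stands at the top for Vegfa, and Pfkfb3 and Adm spread widely within both M groups.

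Each library was then scored as the mean, over genes, of log2 CPM centred on the M libraries. With all 35 genes the score was 0.17, 0.23 and 0.06 in the M_WT libraries, -0.06, -0.06 and -0.34 in those of M_KO, and 0.07 (F_WT) and -0.06 (F_KO) in the F pair, a difference of -0.31 in M. Without Gapdh it was 0.11, 0.18 and 0.08 in the M_WT libraries, -0.03, -0.02 and -0.32 in those of M_KO, and 0.02 (F_WT) and -0.04 (F_KO) in the F pair, a difference of -0.24. The WT and KO libraries stayed apart without Gapdh, but the margin over all 8 libraries shrank from between 0.06 and -0.06 to between 0.02 and -0.02.

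Over 8 other ways to form the score, the 3 M_WT libraries stayed above the 3 M_KO libraries in 8 of 8 with Gapdh and in 8 of 8 without it. These ways score the same libraries and much the same genes, so they are not independent of each other. The genes were chosen with earlier results of these data known. All 8 libraries were split by genotype in 7 of 8 ways with Gapdh and in 5 of 8 without it. The exception with Gapdh was the median over genes in place of the mean, and without Gapdh it was joined by a mean of at least 10 CPM and by log2(FPKM + 1). Without M_KO_5642 the difference without Gapdh was -0.15 in place of -0.24.

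The parts of the set were not all split by genotype. The enzymes with Gapdh were split by genotype in all 8 libraries, with a difference of -0.44 in M and -0.52 in the F pair, though with the median over genes the M difference was -0.26 and the groups overlapped. Without Gapdh the difference was -0.32 in M, and the groups overlapped: the enzymes scored -0.02, 0.31 and 0.18 in the M_WT libraries, 0.00, -0.30 and -0.19 in those of M_KO, and 0.19 (F_WT) and -0.19 (F_KO) in the F pair. M_WT_5643 lay below M_KO_5944, and the other WT libraries lay above all KO libraries. In none of the 8 other ways did the enzymes without Gapdh separate the M groups.

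The HIF targets scored 0.26, 0.13 and 0.06 in the M_WT libraries, -0.03, 0.17 and -0.61 in those of M_KO, and -0.13 (F_WT) and 0.08 (F_KO) in the F pair. M_KO_5645 lay among the M_WT libraries, and the F pair ran the other way. In 1 of the 8 other ways, with genes at a mean of at least 10 CPM, the M groups were apart. The M difference of -0.30 was -0.08 without M_KO_5642, -0.47 without M_KO_5645 and -0.08 with the median over genes. The transporters and flux regulators together scored 0.18, -0.09 and -0.21 in the M_WT libraries and -0.19, 0.45 and -0.14 in those of M_KO. The groups overlapped, and the difference of 0.08 turned to -0.12 without M_KO_5645, the highest library, and to -0.0022 without M_WT_6255. Without M_WT_5643, M_KO_5944 or M_KO_5642 it was 0.19, 0.20 and 0.17.

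**Figure D5:**
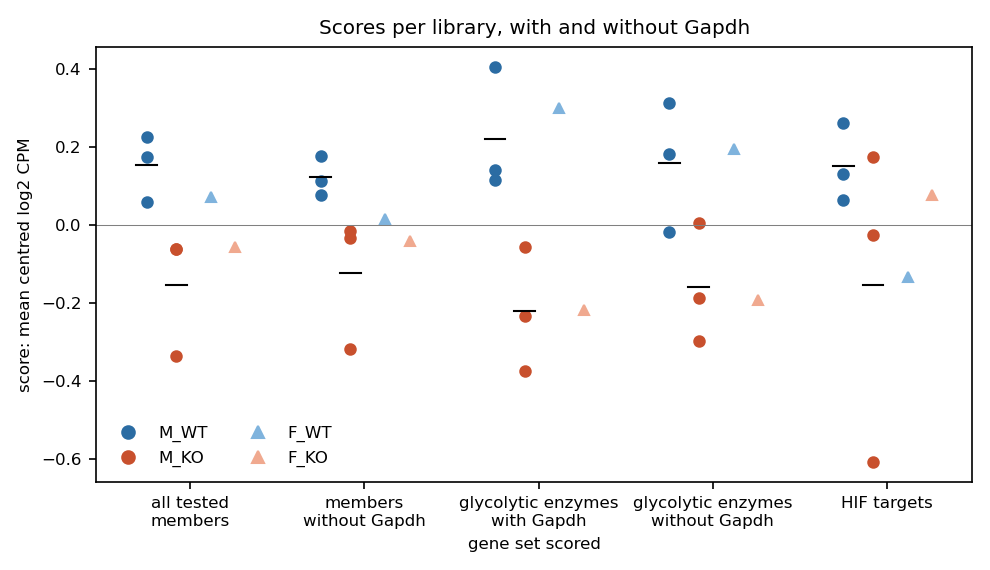
Score of each library (mean over genes of log2 CPM centred on the M libraries) for 5 gene sets, with circles for M, triangles for F and short bars for the mean of each M group. WT and KO separate in all 8 libraries for all tested genes and, by a narrow margin, without Gapdh, and overlap for the enzymes without Gapdh and for the HIF targets.

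Genes around the set were compared by lists chosen for their place in the pathway, with earlier results of these data known. Of 11 tested genes of the HIF machinery, such as Arnt (the partner subunit, 0.05), Epas1 (HIF-2α, -0.37) and Vhl (the ubiquitin ligase component that recognises hydroxylated HIF, 0.20), 8 were lower (median -0.06) and 0 were called by edgeR or DESeq2, with 0 at an unadjusted edgeR p under 0.05. Of 29 other HIF targets tested, 18 were lower and 11 higher with a median of -0.08, and 0 were called by edgeR. At an unadjusted edgeR p under 0.05 there were 3 lower and 1 higher, where 4.22% of all genes were lower and 5.33% higher. DESeq2 called 1 of the 29 lower, against 0.598% of all genes, and the authors' deposited table called 1 lower, against 0.281% of its rows. In both this was Hilpda, which encodes a lipid droplet protein. Its level was 38.4 ± 1.12 CPM in M_WT and 11.7 ± 4.92 CPM in M_KO (SD, n = 3 each), a log2 fold change of -1.73 with a DESeq2 adjusted p of 0.00029 and an edgeR one of 0.354. In the F pair Hilpda differed by 0.08. Large values without a call were those of Tfrc (transferrin receptor, 1.28), Car12 (a carbonic anhydrase, -1.15) and Bhlhe40 (a transcriptional repressor, -1.13), with edgeR adjusted p between 0.474 and 0.645.

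Of 15 tested glycolysis genes outside the set, 10 were lower and 0 were called by edgeR or DESeq2. At an unadjusted edgeR p under 0.05 there were 3 lower, where 4.22% of all genes were lower at that level. Among the 3 was Eno1b, the retrogene counted with Eno1 above, at a log2 fold change of -0.69. Fbp1, the gluconeogenic enzyme that opposes phosphofructokinase, was at 8.17 ± 3.14 CPM in M_WT and 3.92 ± 1.05 CPM in M_KO, a log2 fold change of -1.06. Pyruvate oxidation had 12 tested genes with a median of -0.02, and the values farthest from 0 were -0.60 for Pdp1 (a pyruvate dehydrogenase phosphatase) and 0.53 for Pdk2 (a kinase acting against it). The pentose phosphate branch, which draws on glucose 6-phosphate for NADPH, had 7 tested genes with 4 lower and a median of -0.07 in M. In the F pair all 7 were lower in KO, with a median of -0.43. In both of these lists edgeR and DESeq2 called 0 genes, and 0 had an unadjusted edgeR p under 0.05.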

How the data were processed

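RNA of 8 macrophage libraries was sequenced. Groups were taken from the titles and genotype labels. Animal numbers in the titles are all different, and the labels say nothing of litters or days, so p-values measure only the spread between these samples. The kit was NEBNext Ultra, per the labels' protocols. Per the submitters' processing notes, the builds GRCm38 and mm10 and the tools DESeq2 1.16.1, HISAT2 2.0.5 and featureCounts 1.5.0-p3 were used. The strand setting, the annotation release and the handling of multi-mapping reads are not stated in the labels or headers (not given in the sources used here).

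Whole read counts per gene were deposited by the authors, not normalized (54532 rows, 28170 of them 0 in all libraries). FPKM values were deposited too, scaled to gene length and library size. For the M groups the authors' deposited table lists a log2 fold change and p-value in each of 23513 rows, of which 130 had an adjusted p under 0.05. It also holds per-library values, a signal the authors derived from the counts, which was not used here. Of the value columns, 0 lacked a sample or group.

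Counts were tested in R 4.3.3 with the quasi-likelihood test of edgeR 4.0.16, with TMM scaling and edgeR's own filter on low counts by genotype. Adjustment was over all tested genes (Benjamini-Hochberg, threshold 0.05). The M comparison used 6 libraries (13646 genes, 4 residual degrees of freedom), and fits of genotype and of its interaction with the letter used all 8 (13751 genes). Standard errors came from the F statistic. The F pair has 1 library a genotype and was compared without a test, by log2 CPM with a prior count of 2. DESeq2 1.42.0, limma 3.58.1 (voom, and log2(FPKM + 1) with at least 0.5 FPKM in 3 libraries), other scalings, other filters (none, or at least 1 CPM in 3 libraries) and leaving out libraries were alternatives. The scripts were tested on simulated data. Total counts were 18206427 to 22853583 per library, and a count of 0 allows 3 counts, 0.119 to 0.170 CPM. Intervals cover counting error only.

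Values in every library are given for genes called by edgeR, DESeq2 or the authors, for genes whose M groups do not overlap, and for 14 genes listed by name. Library values of Pdk1, Adm, Pfkm and Gm5345 were added after they were seen. From each other list, called genes and up to 4 with the largest fold change are named, with Arnt, Epas1 and Vhl added for their role. Some genes of these lists are not reported here by name. The members and lists were chosen with earlier results of these data known. Copies of a gene were rows of pseudogene biotype whose GENCODE M21 transcript matched at least 90% over at least 30% of the gene's longest coding transcript, in place of a rule by symbol or description that found 5 copies of Gapdh. Eno1b was added to the copies of Eno1 outside this rule. Motifs were searched in RefSeq promoters of GRCm38.p6, with the window's 250 bases upstream.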

Additional observations from a re-analysis of the deposited data

Results flagged for a closer look

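The genotype difference of Vegfa ran in opposite directions under the 2 letters: every M_KO library lay below every M_WT library, and F_KO lay above F_WT by 1.28 on the log2 scale. The interaction of genotype and letter was 2.38, with an edgeR adjusted p of 0.600 and a DESeq2 adjusted p of 0.000368. The F side has 1 library a genotype, so its spread is taken from the M groups.

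For Slc2a1 every M_KO library also lay below every M_WT library, and F_KO lay above F_WT by 0.50. The interaction was 1.11, with an edgeR adjusted p of 0.965.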

How the results depend on the processing

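For M_KO against M_WT, 3 genes were called with edgeR, 188 with DESeq2, 16 without a filter on low counts, 0 to 21 with a library left out, and, with DESeq2 and a library left out, an alternative chosen after seeing the data, 310, 67 and 96 (M_WT_5643, M_WT_6258 and M_WT_6255 out) and 564, 97 and 250 (M_KO_5944, M_KO_5645 and M_KO_5642 out). Of the 35 tested genes of the set, 0 were called with edgeR and 2 with DESeq2, which called 1 to 4 with a library left out: Gapdh was lost without M_KO_5642, and Pfkm and P4ha2 were added without M_KO_5944. Genotype over all 8 libraries gave 1 call with edgeR, 132 with DESeq2, 7 without a filter and 0 to 3 with a library left out. The interaction gave 3 calls, 22 with DESeq2 and 0 to 6 with a library left out. The scores of all genes, of all without Gapdh, of the enzymes with and without Gapdh and of the HIF targets kept their sign in all alternatives, with the HIF targets falling to -0.08 without M_KO_5642. With the median over genes the score difference was -0.19 for all genes and -0.26 for the enzymes with Gapdh, and with library totals alone it was -0.16 for all without Gapdh. The transporter and flux regulator score ran from -0.12 to 0.20 with a library left out, and was 0.17 with library totals alone and 0.16 with genes at a mean of at least 10 CPM. Alternatives for this score and for the enzymes with Gapdh were chosen after seeing the data.

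Some single genes changed sign, none of them called. With library totals alone the log2 fold change was 0.078 for Pfkl, 0.0022 for Pfkfb3, 0.059 for Bnip3, 0.033 for Ndrg1, 0.013 for P4ha1 and 0.074 for Kdm3a. The median of all tested genes was 0.10 with that scaling, against 0.01 with TMM. With upper-quartile scaling it was 0.013 for Pfkl and 0.0092 for Kdm3a, and with limma voom 0.0046 for Bnip3 and -0.20 for Egln3. With a library left out the range was -0.20 to 0.0070 for Gpi1, -0.17 to 0.10 for Pfkl, -0.20 to 0.21 for Eno1, -0.38 to 0.56 for Pfkfb3, -0.35 to 0.13 for Pfkfb4, -0.22 to 0.17 for Bnip3, -0.20 to 0.89 for Egln3, -0.47 to 0.48 for Ndrg1, -1.49 to 0.69 for Adm, -0.20 to 0.055 for P4ha1, -0.10 to 0.039 for Kdm3a and -0.020 to 0.13 for Hif1a. The cause was not tested. No paired analysis was possible because the labels name no pairs, litters or days.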

Other observations

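Among the copies of Gapdh, the pseudogene Gm5345 (chr8:40853828-40855027, build GRCm38) had counts in 2 libraries and almost none elsewhere. It had 0, 210 and 237 counts in M_WT, 0 in each M_KO library, 1 in F_WT and 0 in F_KO. The libraries with counts were M_WT_6258 and M_WT_6255. Without Gm5345 the summed copies were at 26.7, 39.4 and 43.0 CPM in M_WT and 28.4, 25.8 and 30.3 in M_KO. Gm7336, the copy identical to Gapdh over the open reading frame, was at 9.69 to 16.7 CPM in M_WT and 9.65 to 10.7 CPM in M_KO.

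Single libraries carried many of the extremes. M_WT_6258 was the highest of the 8 libraries for 11 of the 35 tested genes, and M_KO_5645 and M_KO_5642 were the lowest for 10 and 9. M_WT_5643 was the highest for 7, among them Slc2a1, Hk2, Pfkfb3, Adm and P4ha1, and F_KO for 6, among them Vegfa, Mxi1, Kdm3a and Hif1a.

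Eno1b, a retrogene of Eno1, was at 139, 222 and 201 CPM in the M_WT libraries, at 156, 78.9 and 113 in those of M_KO, and at 122 (F_WT) and 69.6 (F_KO) in the F pair. Gm4735, a pseudogene of 99.6% identity to Eno1, was at 21.5, 35.0 and 34.7 CPM in the M_WT libraries, and at 25.3, 12.9 and 18.0 in those of M_KO. In Eno1b and Gm4735 the order of the 8 libraries was led by M_WT_6258 and M_WT_6255, while Eno1 was highest in F_WT and M_KO_5642.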
